A study of Mus musculus with 12 samples.

Results

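The genes described here encode the nuclear subunits of the oxidative phosphorylation (OXPHOS) machinery, grouped by complex, in mouse heart RNA. They were chosen by symbol, as the rows of the count table whose mouse symbol begins with Ndufa, Ndufb, Ndufc, Ndufs or Ndufv but not Ndufaf, is one of Sdha to Sdhd, or begins with Uqcr, Cyc1, Cox4, Cox5, Cox6, Cox7, Cox8 or Atp5. Of the 97 rows that match, 7 named as pseudogenes and 4 others annotated as processed pseudogenes (Cox6c2, Ndufa11b, Ndufb4c and Ndufs6b) were left out, which leaves 86 of the 47729 rows of the table. They comprise 36 genes of complex I, 4 of complex II, 9 of complex III, 20 of complex IV and 17 of complex V. Ndufa4 and its paralogue Ndufa4l2 were counted with complex IV, where the Ndufa4 protein resides, and not with complex I.

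The hearts came from male C57BL/6 mice aged 8 weeks at the start, in 4 groups with 3 libraries each. Mice of the group called EHP-101 below received angiotensin II (Ang II), the pressor peptide of the renin-angiotensin system, from a subcutaneous osmotic pump for 28 days and oral EHP-101, a drug formulation under test, at 20 mg/kg during the last 2 weeks. The losartan group received the same infusion and losartan, a blocker of the angiotensin receptor, at 0.6 g/L in the drinking water over the same 2 weeks. The Ang II group had the infusion and no drug other than vehicle, and the Control group, whose labels mark it as the control for Ang II, is taken to be the saline infusion that the design describes. The labels do not say whether a library is 1 heart or a pool, nor which part of the heart was taken, so p-values measure only the spread between these libraries. Libraries were made from 300 ng of RNA by poly(A) selection and read as 50-base single ends, and assigned counts ranged between 22155418 and 24040516 per library. Values are CPM, counts scaled to library size, after TMM scaling, a scaling that sets most genes equal between libraries, and a gene is called changed where edgeR's adjusted p is under 0.05.

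Oxidative phosphorylation passes electrons from NADH through complex I, or from succinate through complex II, to ubiquinone, then through complex III and cytochrome c to complex IV, which reduces oxygen. The protons pumped on the way return through complex V, the ATP synthase. The heart makes most of its ATP this way, cardiomyocytes are densely packed with mitochondria, and several complex IV subunits exist as a striated-muscle form and a ubiquitous form encoded by separate genes. Complexes I, III, IV and V also hold subunits encoded by mitochondrial DNA, whereas complex II is wholly nuclear.

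Of the 86 genes, 84 passed the filter on low counts, among 15336 genes tested. The other 2 are complex IV isoform genes: Cox7b2 had 26 counts over all 12 libraries and Cox8c had 0. Cox6b2, a testis isoform, passed at the edge of detection, with between 0.548 and 2.16 CPM. The remaining 83 exceeded 5 CPM in every library. Per length, on a scale of CPM per kilobase of principal transcript (RPKM), Atp5b, the catalytic beta subunit of ATP synthase, came first with a median of 2573 RPKM over the 12 libraries (range 1928 to 3736), followed by Atp5a1, its alpha partner, at a median of 1760 RPKM (1303 to 2572). Their ranges overlap. The striated-muscle forms Cox6a2 and Cox7a1 held ranks 5 and 6, at medians of 1447 and 1231 RPKM, and Cox8b stood at 828 RPKM, far above the ubiquitous Cox6a1 at 88.6 RPKM and Cox8a at 91.0 RPKM. In complex I the medians ran between 621 RPKM for Ndufb9 and 16.0 RPKM for Ndufb2. Ndufb2, Ndufab1 and Atp5g1 have long principal transcripts in the annotation (4371, 3479 and 4715 bases), which lowers their values on this scale.

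The library counts hold heart muscle as labelled: the 15 cardiomyocyte markers summed to between 74733 and 102521 CPM in every library, and 6 of 10 skeletal muscle markers (Myh1, Myh2, Myh4, Tnnc2, Actn3 and Myog) stayed under 1 CPM throughout. One library stands apart. Along the leading axis of a principal component analysis (35.27% of the variance) Control 2 scored 84.37, with the other libraries between -32.41 and 12.72, and it held the highest value of the 12 libraries for 82 of the 84 tested OXPHOS genes, against 30.5% of all tested genes. Each comparison with Control is therefore given with and without it. Across the whole transcriptome the excess of Control 2 was graded by transcript length, and OXPHOS transcripts are short, with a median principal transcript of 849 bases against 2910 bases over all tested genes.

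**Figure D1:**
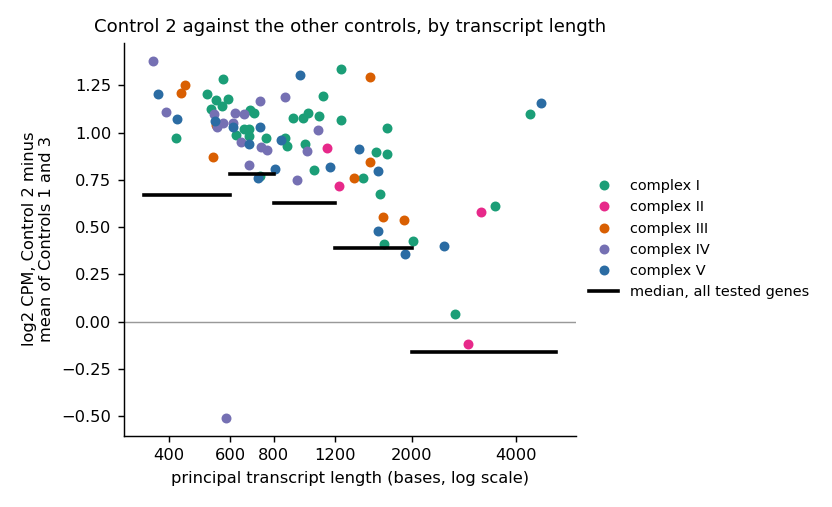
Difference in log2 CPM between Control 2 and the mean of Controls 1 and 3 (vertical axis) against principal transcript length in bases (horizontal log axis), 1 point per tested OXPHOS gene coloured by complex; black bars give the median of all tested genes in each length class. The median of the OXPHOS genes was 1.12 up to 600 bases and 0.50 above 2000 bases; that of all tested genes was 0.67 and -0.16 in these classes, with its highest value, 0.78, between 600 and 800 bases.

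Among the OXPHOS genes the difference between Control 2 and the mean of the other controls had a median of 0.99 on the log2 scale. It was 1.12 for the 20 genes up to 600 bases long and 0.50 for the 8 genes above 2000 bases, against 0.67 and -0.16 for all tested genes of the same lengths. Sdha (2900 bases) was lower in Control 2 than in the other controls, and Ndufs1 (2661 bases) had 771 CPM there, against 751 and 746.5 CPM in Controls 1 and 3. Atp5g1 and Ndufb2, with annotated lengths of 4715 and 4371 bases, lay 1.156 and 1.101 above the mean of the other controls on the log2 scale. Losartan 1 showed a smaller gradient: its OXPHOS genes up to 600 bases lay 0.23 above the other losartan libraries and those above 2000 bases 0.07, against 0.21 and -0.03 for all tested genes. How far transcript length accounts for any gene's value in Control 2 was not tested.

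**Figure D2:**
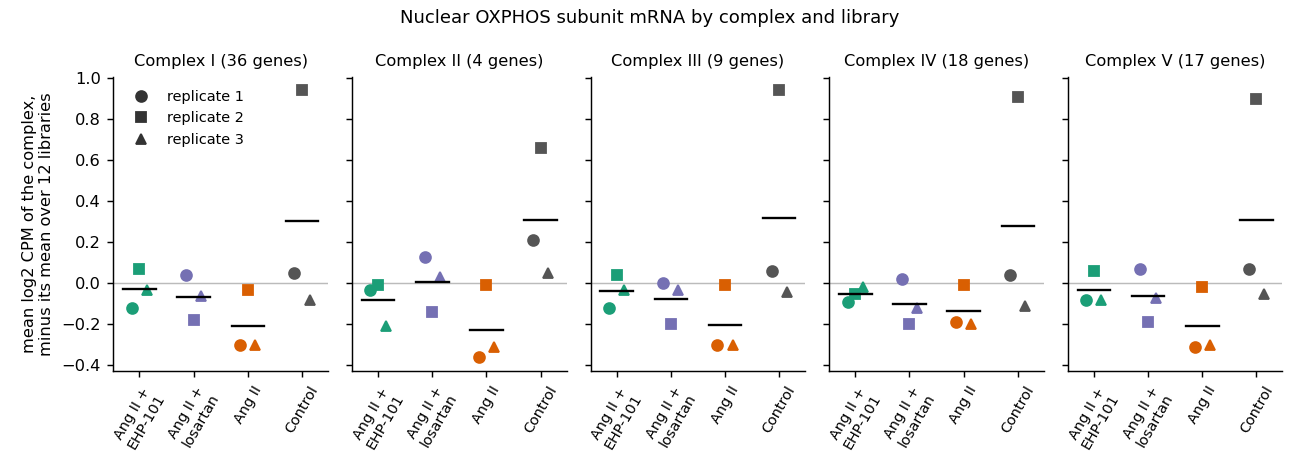
Mean log2 CPM of the genes of each complex, minus its mean over the 12 libraries (vertical axis), by group; each symbol is 1 library, its shape the replicate number, and the bar the group mean. Control 2 lies between 0.66 and 0.94 in all 5 complexes, while the other 11 libraries lie between -0.36 and 0.21.

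Taken as a mean over the 84 genes, relative to the mean of the 12 libraries, log2 CPM stood at -0.10, 0.03 and -0.04 in the EHP-101 libraries. It stood at 0.04, -0.19 and -0.07 in the losartan libraries. The Ang II libraries lay at -0.28, -0.02 and -0.28, and the Control libraries at 0.06, 0.91 and -0.07. Thus 2 of the 3 Ang II libraries are the lowest of all 12, and Ang II 2 lies within the range of Controls 1 and 3. Of the 84 genes, 75 had their lowest value in Ang II 1 (40 genes) or Ang II 3 (35 genes).

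The first comparison asks what Ang II infusion did to these transcripts. In the Ang II hearts 83 of the 84 genes lay below Control, with a median log2 fold change of -0.59, and edgeR's quasi-likelihood test called none of them. Over all genes the same test called 83 genes, 0.541% of those tested, of which 0.0261% of those tested were lower. At an unadjusted p under 0.05, 69 OXPHOS genes were lower (82.1%, against 8.53% of all tested genes). Without Control 2 the median was -0.18, 79 of 84 genes were below 0, and 15 (17.9%) were lower at an unadjusted p under 0.05, against 4.88% of all tested genes. None was called in that fit either, in which 0.096% of all genes were called and the smallest adjusted p was 0.226 for Sdha. Over all tested genes the median was 0.00 in both fits. With 12 libraries, removing the trend with transcript length gave an OXPHOS median of -0.35. In that fit 71.4% were lower at an unadjusted p under 0.05, against 1533 of 15336 tested genes. Scaling by library size alone gave -0.38, with 44.0% lower at that p, against 343 of 15336 tested genes. The median over all tested genes was 0.17 with that scaling.

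The number called depends on the test used. DESeq2 called 6 OXPHOS genes lower (among them Sdhc, Atp5b, Uqcrc1, Atp5a1 and Ndufv1), where it called 0.97% of all genes lower. limma-voom with sample quality weights, which gave Control 2 a weight of 0.112, called 30 lower, against 7.37% of all genes. Those 30 comprise 10 genes of complex I, all 4 of complex II, 4 of complex III, 3 of complex IV and 9 of complex V. limma-voom without weights called 0.

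**Figure D3:**
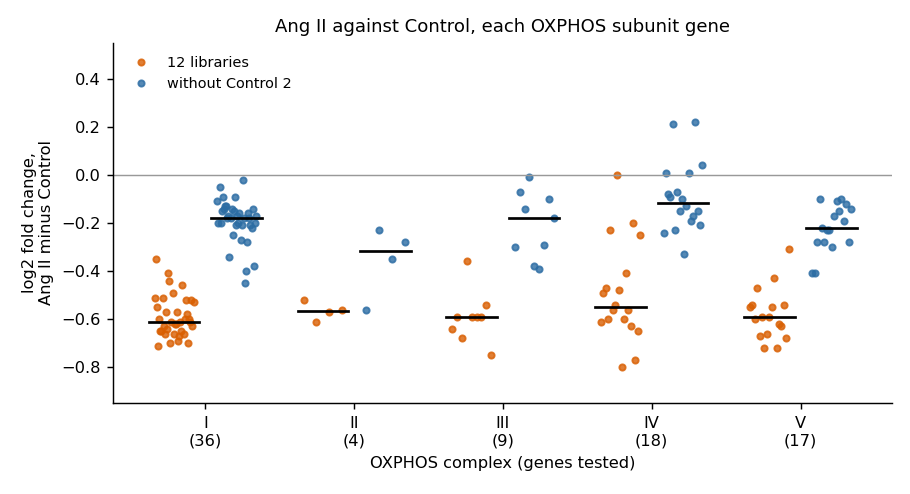
Log2 fold change of Ang II minus Control (vertical axis) for each tested OXPHOS gene, by complex; orange points use all 12 libraries, blue points leave out Control 2, and bars mark the median. Without Control 2 the complex medians lie between -0.31 (complex II) and -0.12 (complex IV), and Cox6a1 and Cox8a are the highest points, at 0.21 and 0.22.

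In complex I all 36 genes lay below Control, with a median of -0.61 and, without Control 2, -0.18. Ndufs1, an iron-sulphur subunit of the arm that takes up electrons, had 679.5, 577 and 470.0 CPM in EHP-101 hearts. It had 747, 601 and 686.5 CPM in losartan hearts, 497, 629 and 522 CPM in Ang II hearts, and 751, 771 and 746.5 CPM in Control hearts. All 3 Ang II values lie below all 3 Control values, which here include a Control 2 close to the others. The log2 fold change of Ang II over Control was -0.46 ± 0.16 (SE; edgeR adjusted p = 0.2) and -0.45 ± 0.16 without Control 2 (adjusted p = 0.275). Ndufv1, the flavoprotein that oxidises NADH, had 505, 639 and 528.5 CPM in Ang II hearts, against 783, 958 and 663 CPM in Control hearts, again without overlap. Of the accessory subunits, Ndufa9 had a log2 fold change of -0.64 ± 0.20 (-0.34 ± 0.14 without Control 2). Ndufb8, in the membrane arm, had -0.69 ± 0.24 and -0.27 ± 0.13 without Control 2, with overlapping groups. Ndufab1, the mitochondrial acyl carrier protein, had -0.41 ± 0.16 and -0.18 ± 0.11. Ndufc1, another accessory subunit, was the closest to 0 in complex I without Control 2, at -0.02 ± 0.11.

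Complex II, succinate dehydrogenase, links the chain to the tricarboxylic acid cycle. Sdha, its flavoprotein and the gene with the lowest log2 fold change of all 84 without Control 2, had 1574, 1327 and 1043 CPM in EHP-101 hearts. It had 1614, 1384 and 1617 CPM in losartan hearts, 1056, 1434 and 1148 CPM in Ang II hearts, and 1867, 1644 and 1704 CPM in Control hearts. Every Ang II library lies below every Control library, with Ang II 2 the nearest, and Control 2 is the lowest of its group. The log2 fold change was -0.52 ± 0.17 (edgeR adjusted p = 0.194), and -0.56 ± 0.18 without Control 2 (adjusted p = 0.226). With quality weights it was -0.65, at a limma-voom adjusted p of 0.00579. The membrane anchor Sdhc had 327, 410 and 328 CPM in Ang II hearts, against 484, 674 and 420 CPM in Control hearts, with a log2 fold change of -0.57 ± 0.17, or -0.35 ± 0.13 without Control 2. Sdhd, the other anchor, and Sdhb, the iron-sulphur subunit, had -0.28 ± 0.14 and -0.23 ± 0.13 without Control 2; of the 4 genes, Sdhb alone overlapped between the groups.

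Complex III moves electrons from ubiquinol to cytochrome c. Its 9 genes had a median of -0.59, and -0.18 without Control 2. Uqcrc1, a core protein, had 764, 1006 and 824 CPM in Ang II hearts, against 1159, 1654 and 1097 CPM in Control hearts. Its groups do not overlap, and its log2 fold change was -0.59 ± 0.18 (-0.38 ± 0.14 without Control 2). The second core protein, Uqcrc2, followed at -0.59 ± 0.19 and -0.39 ± 0.16. The electron carriers of the complex, the Rieske protein Uqcrfs1 and cytochrome c1 (Cyc1), had -0.29 ± 0.13 and -0.30 ± 0.13 without Control 2. The small subunit Uqcrq had the lowest value with 12 libraries, -0.75 ± 0.28, and -0.18 ± 0.13 without Control 2. Uqcrb, another small subunit, lay at -0.36 ± 0.21 and -0.01 ± 0.12.

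Complex V had a median of -0.59, and -0.22 without Control 2. Atp5b had 5121, 4570.0 and 3928 CPM in EHP-101 hearts, 4867, 4492 and 5074 CPM in losartan hearts, 3695, 4993 and 3961 CPM in Ang II hearts, and 5914, 7158 and 5256 CPM in Control hearts. Ang II 2 again lies nearest to Control, and the groups do not overlap. The log2 fold change of Ang II over Control was -0.54 ± 0.17 (edgeR adjusted p = 0.183), and -0.41 ± 0.16 without Control 2 (adjusted p = 0.324). Atp5a1 had 3219, 4236 and 3442 CPM in Ang II hearts, against 4983, 6355 and 4653 CPM in Control hearts, a log2 fold change of -0.55 ± 0.17, or -0.41 ± 0.15 without Control 2. Atp5c1, the gamma subunit of the rotating stalk, had -0.60 ± 0.22 and -0.28 ± 0.15, with overlapping groups. The genes Atp5g1, Atp5g2 and Atp5g3 all encode the same mature subunit of the rotor ring. They had -0.72 ± 0.26, -0.66 ± 0.23 and -0.59 ± 0.20 with 12 libraries, and -0.23 ± 0.13, -0.23 ± 0.12 and -0.30 ± 0.13 without Control 2. Across the 84 genes, the log2 fold change without Control 2 was lower for longer transcripts (Pearson r = -0.48 over genes, which share libraries and are not independent), and the median was -0.29 above 2000 bases and -0.13 up to 600 bases.

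Counting genes whose Ang II and Control libraries do not overlap gave 20 lower OXPHOS genes (23.8%), against 10.3% of all tested genes. Without Control 2 the same number were lower, against 18.3% of all tested genes, and 2 were higher (2.38%, against 19.3%). The share of lower genes without Control 2 is thus near the background. The 20 comprise 7 genes of complex I, 3 of complex II, 4 of complex III, 1 of complex IV and 5 of complex V, and the 2 higher ones are Cox6a1 and Cox8a.

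Complex IV, cytochrome c oxidase, held both the lowest and the highest genes with 12 libraries. Its 18 tested genes had a median of -0.55, and -0.12 without Control 2, with 5 of them above 0 in the fit with 11 libraries. The SD of the log2 fold changes over its genes without Control 2 was 0.147, close to 0.145 in complex II and 0.138 in complex III and above 0.0898 in complex I and 0.0983 in complex V. Cox4i1, the main form of its largest nuclear subunit, had -0.61 ± 0.22 and -0.24 ± 0.13 without Control 2, and Ndufa4 had -0.65 ± 0.25 and -0.21 ± 0.14. Cox5a and Cox5b, which occur as single forms, lay at -0.47 ± 0.24 and -0.60 ± 0.27, and at -0.08 ± 0.16 and -0.09 ± 0.13 without Control 2. Cox6b1, which faces the intermembrane space, lay at -0.54 ± 0.25 and -0.07 ± 0.13. Cox7a2l, a factor that joins complexes III and IV into supercomplexes, had -0.41 ± 0.23 and 0.01 ± 0.11. The lowest value of all with 12 libraries was that of Cox7a1, at -0.80 ± 0.26 (edgeR adjusted p = 0.185), and it was -0.33 ± 0.14 without Control 2 (adjusted p = 0.361). Cox7a1 had 401, 495 and 374.5 CPM in Ang II hearts, against 559, 1150 and 507 CPM in Control hearts.

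Without Control 2, the ubiquitous Cox8a and Cox6a1 lay above Control and their striated-muscle partners below it, with none called. Cox7a1 and its ubiquitous partner Cox7a2 both lay below Control in that fit, at -0.331 and -0.135. Cox8a, the ubiquitous form of the smallest subunit, had 52.7, 60.2 and 52.4 CPM in Ang II hearts, against 46.6, 96.3 and 47.7 CPM in Control hearts. Its log2 fold change was -0.20 ± 0.24 with 12 libraries, and 0.22 ± 0.13 without Control 2 (edgeR adjusted p = 0.528), so its direction rests on that library. Cox6a1 had 57.3, 55.9 and 52.3 CPM in Ang II hearts, against 50.5, 98.7 and 44.7 CPM in Control hearts. Its log2 fold change was -0.23 ± 0.23, and 0.21 ± 0.11 without Control 2 (edgeR adjusted p = 0.438). Their muscle partners lay lower in both fits: Cox8b at -0.77 ± 0.30 and -0.15 ± 0.12, and Cox6a2 at -0.56 ± 0.21 and -0.23 ± 0.14.

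A ratio of isoforms within 1 library does not depend on how libraries are scaled. The ratio of Cox8b to Cox8a counts was 6.06, 7.92 and 5.63 in EHP-101 hearts and 5.83, 6.16 and 6.74 in losartan hearts. It was 4.76, 5.02 and 4.86 in Ang II hearts, and 6.78, 8.09 and 5.93 in Control hearts. All 3 Ang II values lie below the other 9, and the other groups overlap each other. The difference of Ang II from Control was -0.50 on the log2 scale, and -0.38 without Control 2. The ratio of Cox6a2 to Cox6a1 was 21.1, 20.4 and 19.1 in EHP-101 hearts, 24.6, 18.5 and 17.6 in losartan hearts, 15.0, 17.5 and 16.0 in Ang II hearts, and 22.1, 18.8 and 21.8 in Control hearts. Again the Ang II libraries are the lowest of the 12, though 17.5 in Ang II 2 and 17.6 in losartan 3 nearly meet. The difference of Ang II from Control was -0.37 on the log2 scale, and -0.45 without Control 2. With 3 libraries against 3, an exact two-sided permutation test cannot go below 0.1, so no p is given for these ratios. Their members differ in length (360 bases for Cox8b and 550 for Cox8a, 680 for Cox6a2 and 571 for Cox6a1), and the part of length in the ratios was not tested.

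**Figure D4:**
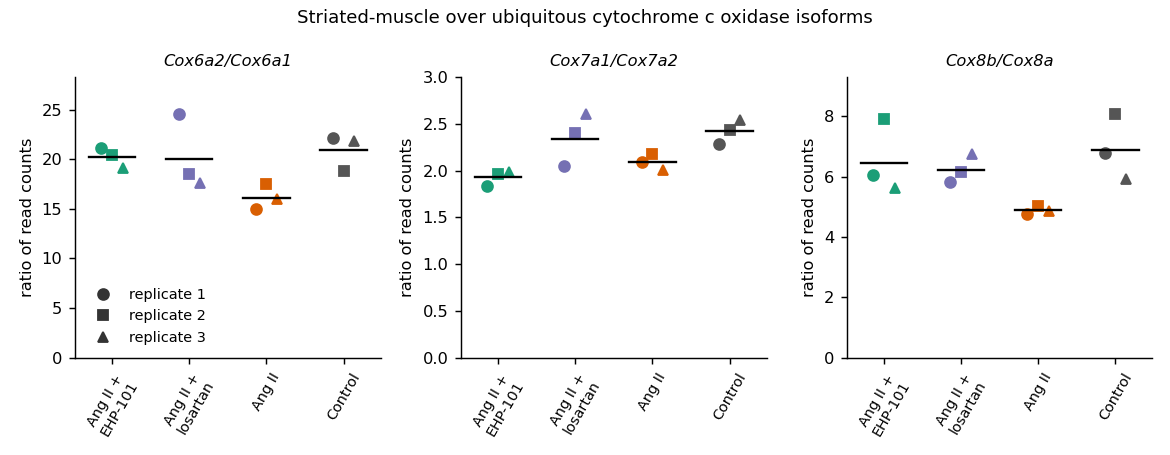
Ratio of read counts of the striated-muscle to the ubiquitous isoform (vertical axes, starting at 0) for 3 complex IV subunits, by group; each symbol is 1 library and bars are geometric means. Ang II libraries are the lowest of all for Cox6a2/Cox6a1 (15.0 to 17.5) and Cox8b/Cox8a (4.76 to 5.02), but not for Cox7a1/Cox7a2, where EHP-101 libraries are the lowest (1.84 to 1.99).

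The third pair differed from these in the treated hearts. The ratio of Cox7a1 to Cox7a2 was 1.84, 1.97 and 1.99 in EHP-101 hearts, 2.05, 2.40 and 2.61 in losartan hearts, 2.09, 2.18 and 2.01 in Ang II hearts, and 2.29, 2.44 and 2.54 in Control hearts. Ang II lay below Control without overlap, by a log2 difference of -0.21 both with and without Control 2. EHP-101 lay below all of the Ang II, losartan and Control libraries. The difference of EHP-101 from Ang II was -0.12 on the log2 scale, and that of losartan from Ang II 0.16 with overlapping groups. Of the isoforms linked to low oxygen, Cox4i2 was between 0.00438 and 0.00812 of Cox4i1 in counts over the 12 libraries, with overlapping groups in every comparison. Ndufa4l2 relative to Ndufa4 was 0.0319, 0.0258 and 0.0348 in Ang II hearts, against 0.0255, 0.0209 and 0.0258 in Control hearts. Ang II 2 and Control 3 differ there only beyond the digits printed, and Ndufa4l2 itself had a log2 fold change of -0.25 ± 0.20, or 0.04 ± 0.16 without Control 2.

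Promoters from RefSeq (build GRCm38.p6) are shown for Cox6a1, Cox8a and Cox8b, 3 of the 4 genes in the ratios that were lowest under Ang II, and for Atp5g3, the most abundant of its trio. Each is the 250 bases before the annotated start, written along the gene's strand, with motif letters in capitals. All 4 genes lie on the minus strand.
Cox6a1, chr5:115348959-115349208: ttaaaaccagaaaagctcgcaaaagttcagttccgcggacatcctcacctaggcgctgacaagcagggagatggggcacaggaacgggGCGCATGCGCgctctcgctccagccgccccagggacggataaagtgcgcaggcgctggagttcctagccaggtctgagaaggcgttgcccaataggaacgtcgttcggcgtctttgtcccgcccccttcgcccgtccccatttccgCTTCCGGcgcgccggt
Cox8a, chr19:7217617-7217866: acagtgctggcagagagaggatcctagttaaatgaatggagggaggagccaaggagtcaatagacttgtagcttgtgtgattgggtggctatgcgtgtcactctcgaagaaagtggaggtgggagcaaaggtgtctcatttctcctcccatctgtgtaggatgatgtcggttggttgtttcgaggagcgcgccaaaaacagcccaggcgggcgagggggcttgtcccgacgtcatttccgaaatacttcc
Cox8b, chr7:140900447-140900696: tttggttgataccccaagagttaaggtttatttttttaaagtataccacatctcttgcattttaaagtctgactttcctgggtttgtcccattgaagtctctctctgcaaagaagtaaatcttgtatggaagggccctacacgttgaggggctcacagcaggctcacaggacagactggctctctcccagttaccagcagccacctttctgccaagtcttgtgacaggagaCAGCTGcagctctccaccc
Atp5g3, chr2:73911327-73911576: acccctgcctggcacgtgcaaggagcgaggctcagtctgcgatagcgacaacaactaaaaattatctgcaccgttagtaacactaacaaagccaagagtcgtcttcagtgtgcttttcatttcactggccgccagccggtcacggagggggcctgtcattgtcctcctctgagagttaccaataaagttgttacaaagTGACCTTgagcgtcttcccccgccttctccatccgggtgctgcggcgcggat
The motifs searched, on both strands, were the NRF1 palindrome and its core GCATGCGC, CCGGAAG (the ETS site bound by GABPA), AAGGTCA (the site of oestrogen-related receptors), AAGATGGC (YY1) and CAGCTG (an E-box). Cox6a1 holds the NRF1 palindrome, starting 162 bases before the annotated start, and an ETS site at 16. Cox8b holds the E-box at 19 and Atp5g3 the oestrogen-related receptor site at 52. Cox8a holds none of these strings in its window. Promoters were in the table for 67 of the 86 genes. The NRF1 palindrome occurs in 4 of these 67 genes (5.97%, against 0.877% of 27025 genes with a promoter in the table). Its core occurs in 8 (11.9%, against 2.56%) and the ETS string in 12 (17.9%, against 7.83%). The receptor string occurs in 5 (7.46%, against 4.70%), the YY1 string in 1 (1.49%, against 1.83%) and the E-box in 6 (8.96%, against 14.7%). The NRF1 core lies within the palindrome, so the first 2 counts overlap. A match describes these letters only.

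The factors named by those motifs, and their coactivators, were read from a list of 20 regulators of mitochondrial gene expression, of which none was called in any comparison. Their median log2 fold change between Ang II and Control was -0.23, and -0.21 without Control 2, with 17 of 20 below 0. Esrra, an oestrogen-related receptor that drives OXPHOS genes, had 109, 131 and 105 CPM in Ang II hearts, against 145, 213 and 134 CPM in Control hearts. Its log2 fold change was -0.51 ± 0.17 (edgeR adjusted p = 0.192), and -0.28 without Control 2. Its relative Esrrg had 44.4, 52.5 and 41.8 CPM in Ang II hearts, against 57.7, 43.2 and 64.3 CPM in Control hearts, where Control 2 is the low library. Its log2 fold change was -0.25 ± 0.14, and -0.40 without Control 2 (edgeR adjusted p = 0.159). Ppara, the fatty acid receptor, had -0.58 ± 0.33 and -0.72 without Control 2. The coactivator Ppargc1a had -0.04 ± 0.22 and -0.22, Nrf1 0.07 ± 0.14 and 0.17, Gabpa -0.10 ± 0.13 and -0.14, and Tfam, which packages and transcribes mitochondrial DNA, -0.32 ± 0.14 and -0.13.

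Other parts of the same system gave the following medians for Ang II minus Control, with no gene called in any list. The 19 genes of the tricarboxylic acid cycle were all below 0, with a median of -0.45, and -0.33 without Control 2. Suclg2, a subunit of succinyl-CoA synthetase, was the member with the smallest p there (-0.55 ± 0.14, edgeR adjusted p = 0.114). The 22 genes of electron carriers and nucleotide exchange had -0.46, and -0.28 without Control 2. Among them Coq8a, a kinase-like protein of ubiquinone synthesis, had -0.55 ± 0.15 (edgeR adjusted p = 0.140), and -0.44 without Control 2. Of 48 assembly factors, 45 were tested, with a median of -0.40, and -0.14 without Control 2. The 26 mitochondrial ribosomal genes had -0.46 and -0.15. The 13 protein-coding genes of the mitochondrial genome had -0.33 and -0.12. The OXPHOS median, at -0.59, is below each of these list medians with 12 libraries, and at -0.18 it is above those of the tricarboxylic acid cycle and the carriers without Control 2. The difference between lists was not tested.

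The heart is a mixture of cells, and in bulk RNA fewer cells of a type and less RNA per cell cannot be told apart. Cardiomyocyte markers, 15 of 15 tested, had a median log2 fold change of -0.30 between Ang II and Control, and -0.22 without Control 2, and summed to between 74733 and 90092 CPM in Ang II hearts, against 90421 and 98607 CPM in Control hearts. Fibroblast markers, 10 of 10 tested, had 0.60 and 0.40, with Postn and Col1a2 called higher with 12 libraries and neither without Control 2. They summed to between 4619 and 5993 CPM in Ang II hearts, against 2450 and 4174 CPM in Control hearts, the lowest being Control 2. Macrophage markers had medians of 0.09 and 0.21 and endothelial markers 0.07 and 0.08, with 10 of 10 tested in each. Erythroid markers (6 of 7 tested) had 0.37 and 0.90, and adipocyte markers (9 of 10 tested) 1.38 and 0.90. The erythroid markers summed to between 457 and 610 CPM in Ang II hearts, against 145 and 741 CPM in Control hearts. For adipocyte markers the sums were 237 to 298 CPM, against 170 to 236 CPM, and Lep and Elovl3 stayed under 1 CPM in every library. Atrial markers had 0.46 and -0.02 in that comparison, and -1.29 for EHP-101 minus Ang II and -1.02 for losartan minus Ang II. They summed to between 657 and 1307 CPM in EHP-101 hearts, 190 and 2344 CPM in losartan hearts, 1745 and 3120 CPM in Ang II hearts, and 414 and 2154 CPM in Control hearts. The part of these cells in the OXPHOS values was not tested.

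The next comparisons set the treated hearts against Ang II alone. They share the 3 Ang II libraries. The spread is estimated over all 12 libraries together, so Control 2 also enters the p-values here and between the drugs. In EHP-101 hearts 79 of the 84 OXPHOS genes lay above Ang II, with a median log2 fold change of 0.18. With scaling by library size alone 61 lay above Ang II and 23 below, with a median of 0.03, against -0.15 over all tested genes. edgeR called none, nor any other gene (0.0% of those tested). At an unadjusted p under 0.05, 0 OXPHOS genes were higher, against 2.11% of all tested genes. The edgeR fit without Control 2 had 2 OXPHOS genes higher at that p (2.38%), against 659 of 15622 tested genes, and called none. DESeq2 called 61 of all genes in this comparison and limma-voom with quality weights 0. Groups did not overlap for 3 higher genes (3.57%, against 7.01% of all tested genes), namely Ndufa7, Ndufab1 and Cox6a2. In losartan hearts 78 of 84 lay above Ang II, with a median of 0.13. With scaling by library size alone 47 lay above and 37 below, with a median of 0.01, against -0.12 over all tested genes. Here too edgeR called no gene (0.0%), DESeq2 called 108 of all genes and limma-voom with quality weights 598, and 0 OXPHOS genes were higher at an unadjusted p under 0.05, against 2.26%. Atp5s, coupling factor B, was higher without overlap, and Cox6a1 was lower without overlap (1.19% each, against 9.22% and 10.5%).

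**Figure D5:**
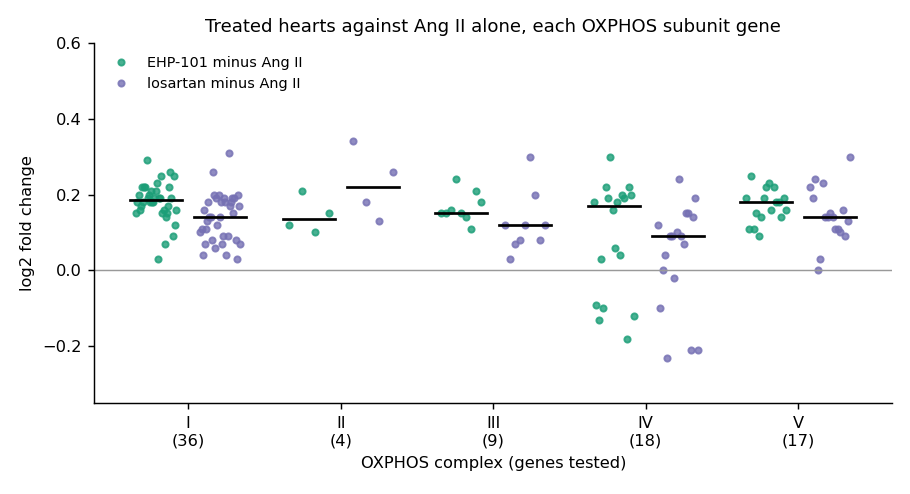
Log2 fold changes over Ang II alone (vertical axis) for each tested OXPHOS gene, by complex; green points are EHP-101 minus Ang II, purple points losartan minus Ang II, and bars mark the median. Complex medians lie between 0.13 and 0.19 for EHP-101 and between 0.09 and 0.22 for losartan, and 5 complex IV genes lie below 0 with each drug.

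By complex, the EHP-101 medians were 0.19 in complex I, 0.13 in complex II, 0.15 in complex III, 0.17 in complex IV and 0.18 in complex V. The losartan medians were 0.14, 0.22, 0.12, 0.09 and 0.14 in the same order. Sdha, whose values are given above, had 0.12 ± 0.17 with EHP-101 (edgeR adjusted p = 0.970) and 0.34 ± 0.17 with losartan (adjusted p = 0.630), the largest losartan value of the 84. Its losartan libraries lie between 1384 and 1617 CPM, and the Ang II libraries between 1056 and 1434 CPM, so the groups overlap through Ang II 2. Ndufs1 had 0.07 ± 0.16 with EHP-101 and 0.31 ± 0.16 with losartan, and Atp5b had 0.11 ± 0.17 and 0.19 ± 0.17. Ndufa7, an accessory subunit of complex I, had 95.8, 109 and 98.8 CPM in EHP-101 hearts, against 79.1, 92.8 and 76.9 CPM in Ang II hearts, and its 0.29 ± 0.25 (edgeR adjusted p = 0.934) was the highest value with EHP-101 outside Cox6b2. The genes below 0 in both treatments were complex IV genes. Cox8a had -0.18 ± 0.24 with EHP-101 and -0.21 ± 0.24 with losartan, and Cox6a1 had -0.10 ± 0.23 and -0.23 ± 0.23. Ndufa4l2 had -0.12 ± 0.21 and -0.21 ± 0.21. Cox5a had -0.13 ± 0.24 with EHP-101 and 0.00 ± 0.24 with losartan. Cox5a is one of the genes where Ang II 2, at 232 CPM, lies far above Ang II 1 and 3, at 152 and 159 CPM.

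Leaving out 1 library at a time gave OXPHOS medians over Ang II between 0.13 and 0.27 for EHP-101. For losartan they lay between 0.06 and 0.23. The highest value of each range came without Ang II 2. The 13 mitochondrially encoded genes had medians of 0.29 and 0.32 over Ang II, cardiomyocyte markers 0.35 and 0.22, fibroblast markers -0.27 and -0.58, and macrophage markers -0.67 and -0.50. The part of these lists in the OXPHOS values was not tested.

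Set against Control, EHP-101 hearts had an OXPHOS median of -0.42, with 83 of 84 genes below 0. edgeR called none of them, against 0.398% of all tested genes. DESeq2 called 492 of all genes in this comparison and limma-voom with quality weights 477. At an edgeR unadjusted p under 0.05, 17 OXPHOS genes were lower (20.2%, against 8.15%), and 13 were lower without overlap (15.5%, against 10.4%). Without Control 2 the median was 0.00, 41 of 84 genes lay below 0, and 2 were lower at an unadjusted p under 0.05 (2.38%, against 6.4%), namely Sdha and Ndufs1. Losartan hearts had -0.47, with 84 of 84 below 0 and none called. edgeR called no gene at all there (0.0%), DESeq2 called 22 of all genes, limma-voom with quality weights 3, and 23 OXPHOS genes were lower at an unadjusted p under 0.05 (27.4%, against 5.16% of all tested genes). In 11 genes the groups did not overlap (13.1%, against 7.09%). Without Control 2 the losartan median was -0.04, and 0 OXPHOS genes passed an unadjusted p of 0.05, against 2.02% of all tested genes that were lower. Without Control 2, log2 fold changes of long catalytic genes in EHP-101 hearts were lower than that median: Sdha at -0.44 (edgeR adjusted p = 0.298), Ndufs1 at -0.38 (adjusted p = 0.323) and Atp5b at -0.30 (adjusted p = 0.432). In losartan hearts the same genes had -0.21, -0.14 and -0.21. The mitochondrially encoded genes, without Control 2, were above Control for 13 of 13 in both treatments. Their medians were 0.18 for EHP-101 and 0.22 for losartan, and those of the nuclear subunits 0.00 and -0.04. The 13 genes summed to between 180177 and 240047 CPM in EHP-101 hearts. They summed to between 198644 and 259674 CPM in losartan hearts, the highest being losartan 1. Controls 1 and 3 had 185562 and 197300 CPM, so the EHP-101 libraries overlap them. None of the 13 was called.

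Between the drugs, EHP-101 minus losartan gave an OXPHOS median of 0.05, with 59 of 84 genes above 0. edgeR called no gene (0.0%), DESeq2 called 25 of all genes, limma-voom with quality weights 1, and 0 OXPHOS genes passed an unadjusted p of 0.05 in either direction (2.97% of all tested genes were lower and 3.07% higher). Ndufs1 had -0.24 ± 0.16 and Sdha -0.23 ± 0.17 (edgeR adjusted p = 0.914 and 0.942), with overlapping groups, and Ndufa11, an accessory subunit of complex I, was the highest of that complex at 0.17. A p above the threshold does not show that the drugs act alike.

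Read counts limit some of these values. The library kit does not keep strand, and 30 of the 86 genes share exon bases with another gene, 27 of them with a gene on the other strand, among them Ndufs1 (Eef1b2), Uqcrc2 (Pdzd9), Cox4i1 (Emc8), Cox6a2 (Itgad), Cox5a, Ndufa9, Ndufa4l2 (Shmt2) and Atp5a1 (Haus1). Reads of Ndufab1, Uqcrh, Atp5k, Atp5l, Cox6c, Ndufa11, Ndufb4 and Ndufs6, which have annotated processed pseudogenes in the table, could be split with these copies.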

How the data were processed

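RNA-seq of 12 mouse heart libraries was analysed from the deposited table of read counts per gene, which the authors made, per the submitters' processing notes, with fastp 0.20.0, HISAT2 2.1.0, featureCounts 2.0.0 and edgeR 3.30.0 on GRCm38; settings are not given in the sources used here. Totals of 22155418 to 24040516 counts per library set the precision. Genes passing filterByExpr were fitted together over the 4 groups with edgeR 4.0.16 (R 4.3.3; TMM factors 0.8391 to 1.113; robust quasi-likelihood test; Benjamini-Hochberg adjustment over all 15336 genes), for 6 comparisons. CPM use the TMM library sizes, and RPKM divide them by principal transcript length. DESeq2 1.42.0, limma 3.58.1 (voom, with and without quality weights), other scalings and filters, a replicate block and leaving out each library were alternatives; removal of the trend with transcript length was added after seeing the data. Named genes were any called, the 3 smallest p per complex for Ang II against Control, the 2 most positive and negative log2 fold changes per comparison above 1 CPM, and a fixed list of isoforms and catalytic subunits; Uqcrb, Ndufb9, Ndufb2, Ndufc1 and Atp5s were named after their values were seen. Members and lists were chosen with earlier results of these data known. The fitting step was tested on simulated data. The values of 1 member gene are not reported here, though it stays in the fits and counts.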

Additional observations from a re-analysis of the deposited data

How the results depend on the processing

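Control 2 and the tool had the greatest effect. The number of OXPHOS genes called between Ang II and Control was 0 with edgeR, 6 with DESeq2 and 30 with limma-voom quality weights; over all genes it was 83, 513 and 2617. Leaving out 1 library at a time gave medians between -0.76 (without Ang II 2) and -0.18 (without Control 2) for all OXPHOS genes, -0.79 and -0.18 for complex I, -0.69 and -0.31 for complex II, -0.73 and -0.18 for complex III, -0.72 and -0.12 for complex IV, and -0.74 and -0.22 for complex V. For EHP-101 minus Control the ranges were -0.59 to 0.00 (all), -0.59 to 0.01 (I), -0.56 to -0.19 (II), -0.61 to 0.00 (III), -0.58 to 0.02 (IV) and -0.60 to -0.03 (V). For losartan minus Control they were -0.65 to -0.04 (all), -0.68 to -0.04 (I), -0.50 to -0.13 (II), -0.66 to -0.06 (III), -0.65 to -0.03 (IV) and -0.62 to -0.04 (V). Ang II minus Control had an OXPHOS median of -0.35 with the length trend removed from 12 libraries and -0.38 with library size alone. With the length trend removed and Control 2 left out, it gave -0.19 (all), -0.19 (I) and -0.14 (IV), and losartan minus Control -0.05 (all), -0.05 (I), -0.07 (III), -0.04 (IV) and -0.04 (V). Scaling by library size alone gave 0.03 (all), 0.04 (I), 0.00 (III), 0.02 (IV) and 0.03 (V) for EHP-101 minus Ang II, and 0.01 (all) and -0.04 (IV) for losartan minus Ang II, while the median of all genes moved by -0.15 and -0.12. Library size without mitochondrially encoded genes gave 0.07 in complex IV for EHP-101 minus Ang II. The cause of these shifts was not tested. Calls over all genes between Ang II and Control numbered 8 without Ang II 1 or Ang II 3, 151 without Ang II 2 and 15 without Control 2. Same-numbered libraries of different groups had correlations of deviations between -0.327 and 0.33. Libraries with different numbers were not set beside them, so these values cannot decide whether the numbers pair libraries. A fit with the replicate block gave a median of -0.56 and called 0 OXPHOS genes and 57 of all genes.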

Other observations

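The 3 genes for the rotor-ring subunit of ATP synthase kept similar shares of their summed counts in 11 libraries. Atp5g3 took between 73.0% and 76.5% of the counts in those libraries and 69.4% in Control 2, while Atp5g1 took between 20.5% and 23.8%, and 27.2% in Control 2. Atp5g2 took between 2.79% and 3.52% over all 12 libraries. The principal transcript of Atp5g1 has 4715 bases in the annotation, and that of Atp5g3 723 bases. Where principal transcripts tied, the longest was taken, and which transcript these hearts express was not tested. With the length trend removed from 12 libraries, Atp5g1 had the lowest log2 fold change of Ang II minus Control among the OXPHOS genes, at -0.88. OXPHOS genes together made up 3.79%, 3.62% and 3.61% of counts in EHP-101 hearts, 3.82%, 3.57% and 3.87% in losartan hearts, 3.43%, 3.95% and 3.49% in Ang II hearts, and 4.42%, 5.76% and 3.95% in Control hearts.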
